A study of Rattus norvegicus with 20 samples.

Results

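A set of 7 rat genes that encode subunits of the GABA-A receptor were followed across the injured nervous system: Gabra2, Gabra3, Gabra4, Gabra5, Gabrb1, Gabrb2 and Gabrd. They were taken by name from a table of FPKM values (a level given as sequenced fragments scaled by transcript length and by the mapped total of the library), and each name occurred once among 30443 genes. Beside them 9 other GABA-A subunit genes were read, and all 7 reached 1 FPKM in at least 1 library, as did 15210 genes in all. The RNA came from 4 adult female Long-Evans rats, wild type, of about 6 to 8 months and 275 to 350 g. All 4 animals carried a 0.7 mm contusion of one side of the spinal cord at cervical level 4 and, from 2 weeks after it, an electrode array in motor cortex on the side opposite the injury. In 2 animals the motor cortex was stimulated for 1 week, 5 h a day at 10 Hz in cycles of 5 min on and 2 min off, at 80% of the current that evoked a forelimb movement. The other 2 were sham controls, connected to a sham stimulator, and received no stimulation in that week. Before it, 1 week after implantation, all 4 animals had received test pulses to find the current that evoked a forelimb movement. From every animal 5 regions were sequenced: region 1, a block of about 5 mm3 labelled subcortical white matter under the electrodes; region 2, the matching block of the other hemisphere; region 3, cord rostral to the lesion (about C2 to C4); region 4, the lesion (about C4); and region 5, cord caudal to it (about C4 to C6 in the labels). No uninjured animal and no animal without an implant was part of the comparison, so every level given here is one after injury and implantation.

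GABA-A receptors are chloride channels gated by GABA, the main inhibitory transmitter of the brain, and each channel is a ring of 5 subunits drawn from several families. Fast synaptic inhibition is served mostly by receptors with a gamma subunit. Receptors with a delta subunit sit mostly outside synapses and carry a sustained current. The alpha subunit sets much of the receptor's response to GABA and to drugs: the Gabra2, Gabra3 and Gabra5 products form receptors sensitive to benzodiazepines, the Gabra4 product often joins the delta subunit, and the beta subunits complete the GABA binding site and take part in anchoring the receptor.

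Promoter sequences are shown for the genes whose levels separated brain from cord most, Gabra4, Gabrd and Gabrb2, and for Gabrb1, which lies next to Gabra4 in the genome. Each window runs from 250 bases before to 50 bases after the annotated gene start and comes from RefSeq, assembly GRCr8, written 5′ to 3′ on the gene's own strand. Windows were at hand for 6 of the 7 genes. Capitals mark a GC box (GGGCGG on either strand) in the first pair, at chr14:36944497-36944796 (plus strand) for Gabra4 and chr5:171252660-171252959 (minus strand) for Gabrd.
Gabra4: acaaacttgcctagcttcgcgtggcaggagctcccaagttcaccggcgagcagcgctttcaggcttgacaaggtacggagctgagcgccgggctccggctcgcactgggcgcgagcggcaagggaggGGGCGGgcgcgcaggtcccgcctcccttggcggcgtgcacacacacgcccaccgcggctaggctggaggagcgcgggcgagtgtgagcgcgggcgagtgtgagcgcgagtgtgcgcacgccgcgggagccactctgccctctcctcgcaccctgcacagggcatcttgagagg
Gabrd: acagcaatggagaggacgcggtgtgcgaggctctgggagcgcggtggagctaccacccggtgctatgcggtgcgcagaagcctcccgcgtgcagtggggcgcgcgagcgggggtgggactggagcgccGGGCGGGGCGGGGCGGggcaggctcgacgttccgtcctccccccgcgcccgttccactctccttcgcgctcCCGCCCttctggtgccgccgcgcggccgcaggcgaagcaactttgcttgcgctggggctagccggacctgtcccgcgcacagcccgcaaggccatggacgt
In the second pair capitals mark the core of an NRF-1 motif (CGCATGCG, a palindrome and so the same on both strands), at chr14:36902844-36903143 (minus strand) for Gabrb1 and chr10:27439543-27439842 (plus strand) for Gabrb2.
Gabrb1: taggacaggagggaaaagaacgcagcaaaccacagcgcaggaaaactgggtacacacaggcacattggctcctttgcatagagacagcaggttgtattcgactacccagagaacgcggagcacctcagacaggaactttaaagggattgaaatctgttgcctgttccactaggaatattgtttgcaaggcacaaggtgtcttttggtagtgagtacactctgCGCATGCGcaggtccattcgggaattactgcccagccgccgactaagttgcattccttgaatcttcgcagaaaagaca
Gabrb2: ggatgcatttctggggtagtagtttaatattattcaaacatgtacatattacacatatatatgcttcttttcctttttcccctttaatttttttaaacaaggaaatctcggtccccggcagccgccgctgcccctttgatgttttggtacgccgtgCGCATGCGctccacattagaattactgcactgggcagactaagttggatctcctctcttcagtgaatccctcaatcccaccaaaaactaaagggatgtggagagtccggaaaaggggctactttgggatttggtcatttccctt
The Gabra4 window held 1 GC box, starting 123 bases before the gene start, and the Gabrd window held 4, of which 3 overlap at their ends. A GC box occurred in 33.1% of all 33469 promoter windows of this length and also in that of Gabra5. The NRF-1 core was rarer, at 1.66% of all windows, and among the 6 windows it was found in Gabrb1 (starting 28 bases before the gene start) and Gabrb2 (94 bases before). The windows also differed in CG dinucleotides, with 42 in Gabra5, 40 in Gabrd, 35 in Gabra4, 11 in Gabrb1, 9 in Gabrb2 and 0 in Gabra3 against a median of 7. These matches are a description of letters, and no binding or methylation was measured.

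The blocks labelled white matter were rich in transcripts of cortical neurons. Slc17a7, the vesicular glutamate transporter of cortical excitatory cells, stood at 225 to 329 FPKM there, all 6 tested cortical neuron markers were higher than in cord, and all 8 myelin genes were lower, with a median log2 difference of -2.20. The Hox genes that mark cord stood at the floor of the table, 0.1 FPKM, in all 8 blocks. Of 11 tested pan-neuronal markers, 6 were higher in the blocks and 3 were lower, and the markers' mean log2 level ranged from 5.74 to 6.32 in the blocks and from 5.25 to 6.10 in cord. In the region 1 library of stimulated animal 1, summed striatal neuron markers reached 152.7 FPKM against 39.1 to 52.6 in the other 3. Summed phagocyte markers in region 1 were 318 FPKM in stimulated animal 2 and 182 in stimulated animal 1, against 77.1 and 77.7 in the controls. In region 2 they were 133 FPKM in stimulated animal 2 and 15.6 to 17.9 in the other 3. The part of these differences in the results that follow was not tested, and in bulk tissue fewer cells of a type cannot be told apart from less RNA per cell.

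Among the alpha subunit genes the brain and cord levels of Gabra2, Gabra3 and Gabra5 were within 1 log2 unit of each other on average, and Gabra4 was high in the brain blocks only. Gabra2 was the most even, and its means from highest to lowest were 25.4 ± 1.43, 25.1 ± 6.35, 24.7 ± 1.82, 22.1 ± 1.11 and 19.97 ± 2.90 FPKM (SD, n = 4) for regions 5, 1, 2, 4 and 3. No neighbours in that order differed beyond their spread, and none of the 10 pairs of regions passed the test for Gabra2 (limma, adjusted p of 0.0791 or more). With the animal as a block, regions 2 and 3 passed (limma, adjusted p = 0.0386). Of all genes, 47.1%, 52.6% and 58.3% passed between region 1 and regions 3, 4 and 5, and 56.8%, 66.6% and 69.3% between region 2 and the same 3. Gabra3 stood at 17.7 ± 2.04, 15.7 ± 2.81, 15.6 ± 1.55, 12.5 ± 0.344 and 9.61 ± 0.584 FPKM for regions 2, 1, 3, 5 and 4. Of these neighbours only regions 5 and 4 differed (limma, adjusted p = 0.0459). Gabra5 had means of 13.9 ± 2.27, 13.5 ± 1.18, 11.2 ± 0.628, 10.2 ± 1.54 and 8.59 ± 0.861 FPKM for regions 2, 3, 5, 1 and 4, and no neighbours in this order differed. In this order the rostral cord lay next to a brain block, and the block under the electrodes lay next to the lesion.

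For Gabra4 the drop from brain to cord was the main step. Its means were 23.4 ± 2.61 and 22.2 ± 5.55 FPKM for regions 2 and 1, then 3.01 ± 1.03, 1.58 ± 0.0781 and 1.41 ± 0.114 for regions 3, 5 and 4. Region 1 differed from region 3 (limma, adjusted p = 3.63e-10) and region 3 from region 5 (adjusted p = 0.0163), while regions 2 and 1, and regions 5 and 4, did not differ. The region 3 library of control animal 2 was the highest of its region at 4.50 FPKM, and the summed cortical neuron markers were also highest in that library, at 17.3 FPKM against 4.84 to 7.53 in the other 3.

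The beta genes showed a step of the same kind for Gabrb2 and a shallow slope for Gabrb1. Gabrb2, a beta subunit of many synaptic receptors of the adult brain, had means of 38.3 ± 6.06 and 32.0 ± 7.20 FPKM for regions 2 and 1. In cord it stood at 8.26 ± 1.54, 6.19 ± 0.834 and 4.95 ± 0.687 FPKM for regions 3, 5 and 4. Its only neighbours that differed were regions 1 and 3 (limma, adjusted p = 1.47e-08). Gabrb1 stood at 19.2 ± 3.66, 16.5 ± 1.97, 12.8 ± 1.32, 11.4 ± 1.47 and 10.5 ± 0.894 FPKM for regions 1, 2, 3, 5 and 4, and among these only regions 2 and 3 differed (adjusted p = 0.0245).

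Gabrd, the delta subunit of receptors outside synapses, was the member most unequal between brain and cord. In region 1 its libraries read 14.0 and 13.4 FPKM in the controls and 13.8 and 8.46 in the stimulated animals, and in region 2 they read 22.5 and 18.6 against 18.5 and 15.6. Every cord library lay between 0.162 and 0.522 FPKM, above the floor of 0.1 but under the level of 1 used to keep genes. The 8 brain values and the 12 cord values were thus far apart, and regions 1 and 3 differed (limma, adjusted p = 8.05e-12).

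**Figure D1:**
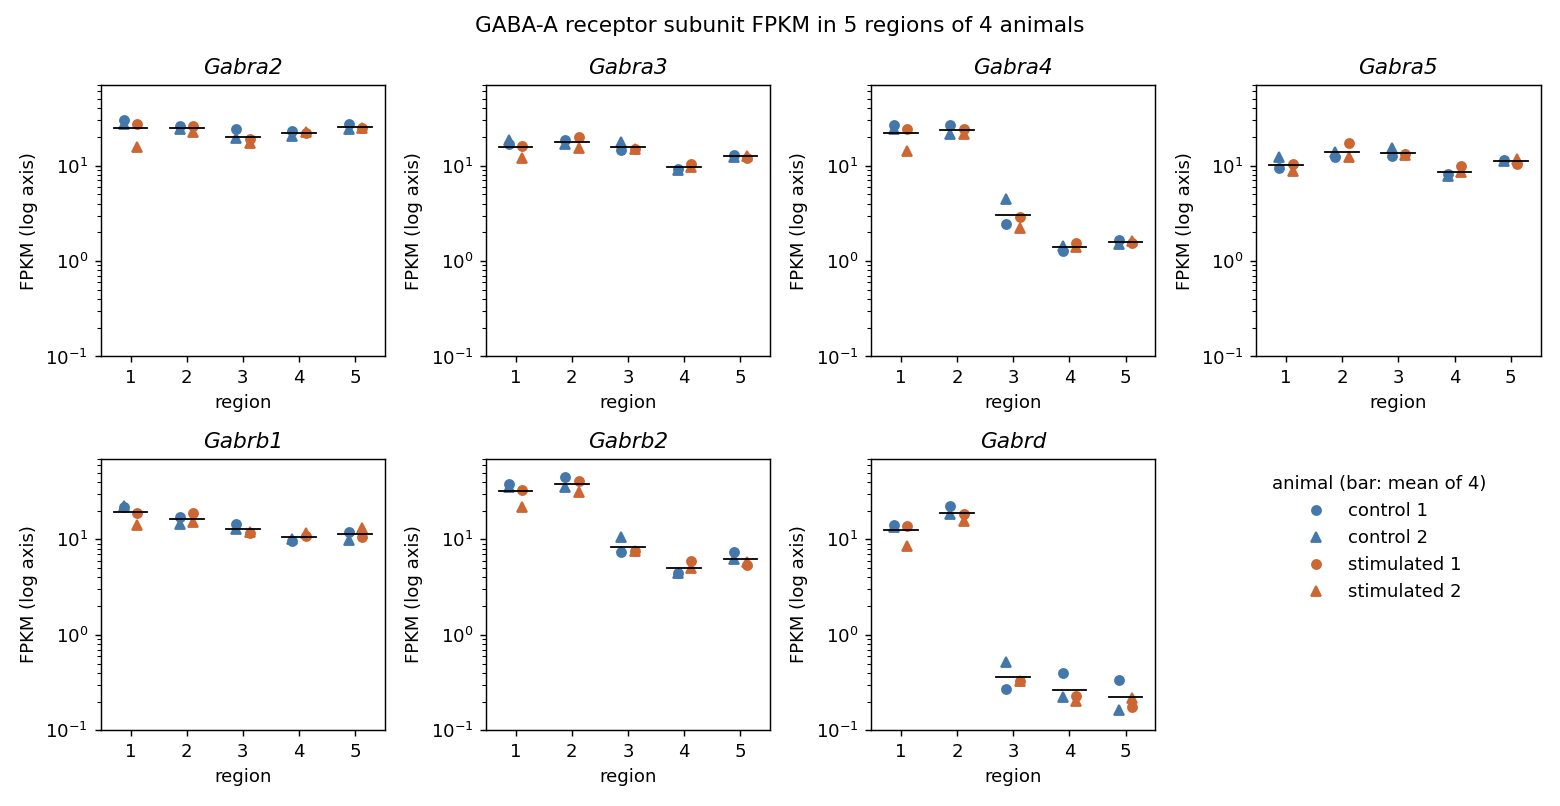
FPKM of each of the 7 genes (log axis) in regions 1 to 5; each symbol is 1 library, circles and triangles the animals numbered 1 and 2 of a group, blue for control and orange for stimulated, and the bar is the mean of 4. Gabra4, Gabrb2 and Gabrd drop between regions 2 and 3, whereas Gabra2 stays between 15.7 and 29.9 FPKM in all 20 libraries.

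Brain blocks were then set against cord as a whole, 8 libraries against 12. Gabrd was 56.4-fold higher in the blocks, Gabra4 12.1-fold and Gabrb2 5.49-fold, Gabrb1 and Gabra3 were higher by less, and Gabra2 and Gabra5 did not pass the test. The filter of 1 FPKM kept Gabrd through the blocks alone, so once kept its highest value could only lie there. Without the filter the same 5 genes were called. In all, 5 of the 7 were higher and 0 were lower, in a table where 72.2% of all genes tested passed, 25.0% as higher and 47.1% as lower. Higher genes made up 34.7% of these calls, against 45.6% under quantile scaling and 14.5% relative to the pan-neuronal markers. The median log2 difference of the 7 was 0.62 and that of all genes -0.18.

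For Gabrd the lowest, median and highest values were 8.46, 14.8 and 22.5 FPKM in the blocks and 0.162, 0.249 and 0.522 in cord, a log2 difference of 5.82 (SE 0.17, limma adjusted p = 3.67e-16). For Gabra4 they were 14.1, 24.1 and 26.7 FPKM against 1.26, 1.59 and 4.50, a log2 difference of 3.59 (SE 0.12, limma adjusted p = 5.32e-15). For Gabrb2 they were 21.6, 35.1 and 45.1 FPKM against 4.44, 6.05 and 10.6, a log2 difference of 2.46 (SE 0.11, limma adjusted p = 2.02e-13). In these 3 genes no brain library overlapped a cord library, which held for 10.3% of all genes tested in that direction and for 27.1% in either. Of the 3, Gabra4 and Gabrb2 reached 1 FPKM in every cord library and Gabrd in none.

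Gabrb1 and Gabra3 differed by under 1 log2 unit. Gabrb1 had a lowest value of 14.1, a median of 18.0 and a highest of 22.1 FPKM in the blocks against 9.70, 11.7 and 14.6 in cord, a log2 difference of 0.62 (SE 0.08, limma adjusted p = 2.62e-06). Gabra3 had 11.9, 16.7 and 20.01 FPKM against 8.997, 12.5 and 17.9, a log2 difference of 0.43 (SE 0.07, limma adjusted p = 3.40e-05), and its brain and cord ranges overlapped, as did those of Gabrb1. The log2 differences of Gabra2 (0.13, SE 0.10, limma adjusted p = 0.21) and Gabra5 (0.12, SE 0.07, adjusted p = 0.15) were within 2 SE of 0. Without stimulated animal 2 the Gabra2 difference was 0.24 and passed the test (limma, adjusted p = 0.00157).

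Relative to neuronal transcripts, 3 signs changed. When the mean log2 level of the pan-neuronal markers was subtracted in each library, Gabrd, Gabra4, Gabrb2 and Gabrb1 remained higher in the blocks. Gabra3 then differed by -0.0063 (limma, adjusted p = 0.88), while Gabra2 stood at -0.30 (adjusted p = 9.89e-04) and Gabra5 at -0.31 (adjusted p = 5.01e-05). On this scale the median of all genes was -0.61, 73.7% of all genes were lower in the blocks and 12.5% higher, so that all 7 lay above the median of the table. Under quantile or upper-quartile scaling all 7 were higher in the blocks. The neuronal markers did not move alike: Syt1, a calcium sensor of synaptic vesicles, was 10.6-fold higher in the blocks, and Nefl, a neurofilament of long axons, was lower by a log2 difference of -1.83.

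**Figure D2:**
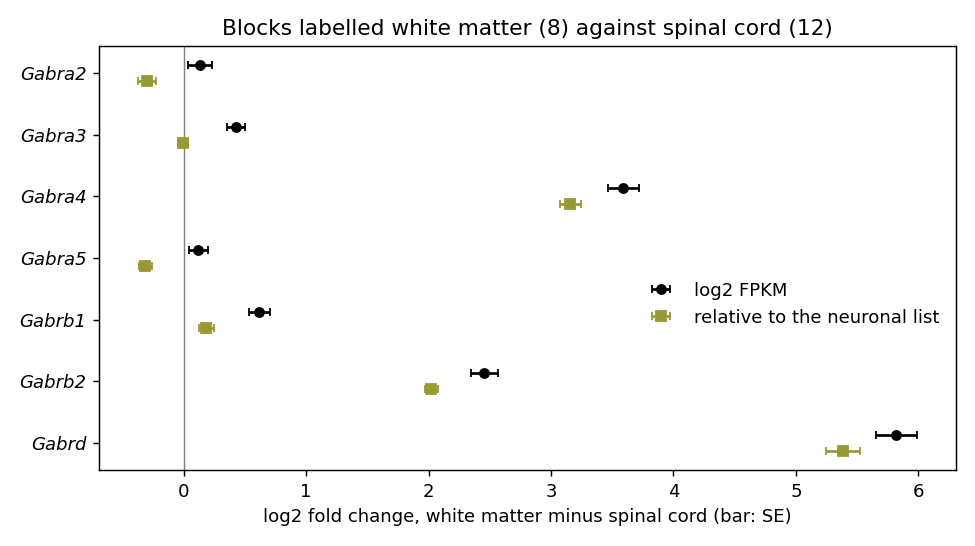
Log2 fold change of each gene between the 8 blocks labelled white matter and the 12 cord libraries, on log2 FPKM (black circles) and after subtraction of the mean log2 level of the pan-neuronal markers (olive squares), with bars of 1 SE. Gabrd, Gabra4 and Gabrb2 stand above 2 on both scales, and Gabra2 and Gabra5 change sign.

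Because FPKM is scaled by length, the share of each gene among its relatives could be read within a library. The summed level of the 4 alpha genes followed here was 73.3 ± 15.4 and 79.7 ± 7.37 FPKM for regions 1 and 2, against 52.1 ± 4.30, 41.7 ± 1.99 and 50.7 ± 2.14 in regions 3, 4 and 5 (SD, n = 4). Gabra4 made up 29.8 ± 1.79% of this sum in the blocks (SD, n = 8) and 4.07 ± 1.46% in cord (n = 12), and Gabra5 15.9 ± 2.69% and 22.9 ± 2.64%. Brain and cord libraries did not overlap in either of these shares. For Gabra5 the ranges nearly met, with a highest share of 19.53% in the blocks and a lowest of 19.59% in cord. Gabra2 took 32.5 ± 2.16% in the blocks and 47.1 ± 7.13% in cord and Gabra3 21.9 ± 1.12% and 25.9 ± 3.33%, and in both the libraries overlapped. Gabra2 had the highest mean level of the 4 in each of the 5 regions. The larger mean shares of Gabra2, Gabra3 and Gabra5 in cord went with levels that were similar to or lower than those in the blocks, since the sum itself was smaller.

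Within the cord the alpha mixture was not uniform. From regions 3 to 5, Gabra2 made up 38.4 ± 4.57%, 53.0 ± 2.07% and 50.1 ± 1.12% of the sum, and Gabra3 30.0 ± 2.197%, 23.0 ± 0.6248% and 24.7 ± 0.385%. Of the sum of Gabrb1 and Gabrb2, Gabrb1 took 33.9 ± 4.42% in the blocks and 64.5 ± 4.59% in cord, without overlap, so that the more abundant of the pair was Gabrb2 in every block and Gabrb1 in every cord library. The lesion had the highest Gabrb1 share, 68.1 ± 2.44%, and region 2 the lowest, 30.2 ± 2.30%.

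**Figure D3:**
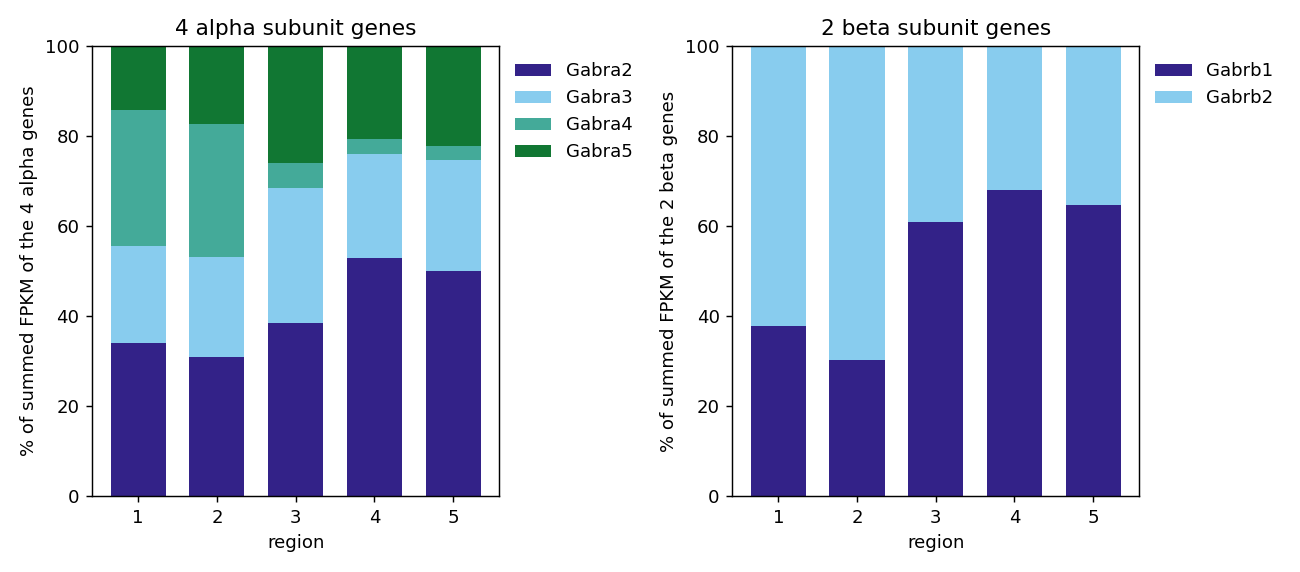
Mean share of each gene in the summed FPKM of Gabra2, Gabra3, Gabra4 and Gabra5 (left) and of Gabrb1 and Gabrb2 (right) in regions 1 to 5, 4 libraries each. Gabra4 fills 30.1% of the alpha sum in region 1 and 3.39% in region 4, where Gabra2 fills 53.0%.

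Other GABA-A subunit genes give the setting of these 7. Of 9 read, 3 were tested, of which Gabrg3 was higher in the blocks and Gabrg1 and Gabrq were lower. Gabrg3, a gamma gene, ran from 3.50 to 5.03 FPKM in the blocks and from 1.41 to 3.05 in cord, a 1.98-fold difference (limma, adjusted p = 4.57e-09). Gabrg1, a gamma gene that lies beside Gabra2, ran the opposite way, from 16.1 to 26.6 FPKM in the blocks and from 30.5 to 43.0 in cord (log2 difference -0.71, limma adjusted p = 1.94e-07). Gabrq, the theta subunit, was lower in the blocks by a log2 difference of -2.34 but reached at most 1.70 FPKM anywhere. Gabra6, Gabre, Gabrp, Gabrr1, Gabrr2 and Gabrr3 stayed under 1 FPKM in all libraries and were not tested.

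The block under the electrodes was compared with that of the other hemisphere, region 1 against region 2. Gabra5 was lower under the electrodes and the other 6 did not pass, in a comparison where 8.61% of all genes tested did and 1.76% were lower. Gabra5 read 9.45, 12.3, 10.5 and 8.74 FPKM in region 1 (control 1, control 2, stimulated 1, stimulated 2) and 12.3, 13.9, 17.1 and 12.3 in region 2. It was lower in region 1 within each of the 4 animals, with a log2 difference of -0.44 (SE 0.11, limma adjusted p = 0.0249). The call did not hold without control animal 1 (adjusted p = 0.15), control animal 2 (0.0771) or stimulated animal 1 (0.25). Gabrd had a log2 difference of -0.61 (SE 0.26) and did not pass (limma, adjusted p = 0.15). In both genes the 4 region 1 values lay under the 4 region 2 values, which held for 3.16% of all genes in that direction and for 7.57% in either. In the same comparison 6 of 8 myelin genes and 4 of 6 phagocyte genes were higher in region 1, with median log2 differences of 0.94 and 2.73, and 1 of 11 pan-neuronal genes was lower.

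In the cord, the segment rostral to the lesion was compared with the lesion itself. Gabra3, Gabra4, Gabra5 and Gabrb2 were higher in region 3 than in region 4, so 4 of the 7 passed against 19.6% of all genes in either direction and 12.8% higher, and Gabra2, Gabrb1 and Gabrd did not. Gabra4 read 2.46, 4.50, 2.86 and 2.202 FPKM in region 3 and 1.26, 1.44, 1.53 and 1.41 in region 4, a log2 difference of 1.04 (SE 0.19, limma adjusted p = 0.00138). Gabra3 read 14.4 to 17.9 FPKM against 8.997 to 10.3, a log2 difference of 0.70 (SE 0.11, limma adjusted p = 5.66e-04). Gabra5 read 12.6 to 15.2 FPKM against 7.82 to 9.81, a log2 difference of 0.65 (SE 0.11, limma adjusted p = 9.51e-04). In these 3 and in Gabrb2 the rostral libraries lay above the lesion libraries without overlap, which held for 15.7% of all genes in that direction and for 28.8% in either.

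Gabrb2 read 7.31, 10.6, 7.62 and 7.54 FPKM in region 3 and 4.45, 4.44, 5.90 and 5.01 in region 4, a log2 difference of 0.73 (SE 0.17, limma adjusted p = 0.00578). Its call did not hold without control animal 2 (adjusted p = 0.14), the library with the high rostral value. Gabra2 had a log2 difference of -0.15 (SE 0.15), Gabrb1 of 0.28 (SE 0.13) and Gabrd of 0.48 (SE 0.26). Over the same pair of regions 8 of 11 pan-neuronal genes were higher rostrally, with a median of 0.50 on the log2 scale, and 5 of 6 phagocyte genes were lower, with a median of -2.47. Relative to the pan-neuronal markers Gabra3 and Gabra4 remained higher in region 3, Gabra5 (0.11, limma adjusted p = 0.27) and Gabrb2 (0.19, adjusted p = 0.0603) did not pass, and Gabra2 stood at -0.70 (adjusted p = 1.00e-04) and Gabrb1 at -0.27 (adjusted p = 0.0186). Subtracting the markers moved every gene alike: the median of all genes went from 0.02 to -0.52, and 74.9% of all genes were then lower in region 3 and 1.58% higher. Gabrb1 thus lay above that median and Gabra2 below it. The FPKM of Gabra2 did not pass between these regions while most neuronal markers were lower at the lesion.

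Caudal to the lesion the differences were smaller. Gabra3, with a log2 difference of 0.38 (SE 0.11, limma adjusted p = 0.0459), and Gabra5, with 0.39 (SE 0.11, adjusted p = 0.0461), were higher in region 5 than in region 4, 2 of the 7 against 7.99% of all genes in either direction and 7.06% higher. Neither passed without control animal 1 or 2, without a filter, or under quantile or upper-quartile scaling, Gabra3 did not pass without stimulated animal 1, and Gabra5 did not pass without stimulated animal 2. Between the segments rostral and caudal to the lesion, Gabra4 was higher in region 3 by 0.87 on the log2 scale (SE 0.19, limma adjusted p = 0.0163), 1 of the 7 against 4.32% of all genes in either direction and 1.55% higher. This call was lost without control animal 1 (adjusted p = 0.0706), control animal 2 (0.14) or stimulated animal 1 (0.14).

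The contrast the study was designed for, stimulated against sham animals within a region, gave no call in the 7 genes. In every region 0 of the 7 passed limma's adjusted threshold of 0.05 and 0 had an unadjusted p under it. Of all genes 0% passed in regions 1 to 4 and 0.0197% in region 5, and unadjusted p-values under 0.05 were reached by 828, 215, 522, 341 and 546 genes in regions 1 to 5. With 2 animals against 2 the smallest two-sided exact permutation p is 0.333. Single genes were thus tested with limma, which combines a gene's own spread with one shared across genes.

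Under the electrodes all 7 genes had lower means in the stimulated animals, by between 0.17 (Gabra5) and 0.48 (Gabra2) on the log2 scale, with limma adjusted p between 0.71 and 0.79. Gabra2 read 29.9 and 27.6 FPKM in the controls and 27.0 and 15.7 in the stimulated animals, a log2 difference of -0.48 (SE 0.30). Gabra4 read 26.5 and 24.2 against 24.0 and 14.1 (log2 difference -0.46, SE 0.30). Gabrb1 read 21.6 and 22.1 against 19.0 and 14.1 (log2 difference -0.42, SE 0.18). In 5 of the 7 both stimulated values lay under both control values, which held for 19.5% of all genes in that direction and for 40.6% in either, and Gabra5 and Gabrd overlapped.

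The lowest values were those of stimulated animal 2, whose region 1 library was the lowest of the 4 for all 7 genes. Its median log2 distance from the other 3 libraries was -0.70 over the 7 genes, -0.42 for the pan-neuronal markers and -0.16 over all genes. Without it, the differences ran from -0.20 for Gabrb1 to 0.01 for Gabrd. Relative to the pan-neuronal markers the differences in region 1 ran from -0.22 for Gabra2 to 0.09 for Gabra5, and the striatal markers of these libraries are those given above. The 6 phagocyte markers had a median log2 difference of 1.60 with stimulation in region 1 and 0 of them passed (limma), and their part in the lower values was not tested.

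The other regions did not share one direction. In region 2 the log2 differences lay between -0.27 for Gabrd and 0.15 for Gabra5, and 1 gene, Gabrd, had its stimulated values under its control values against 6.77% of all genes in that direction and 27.0% in either. Stimulated animal 2, with the high phagocyte markers, was the lowest of the 4 libraries there for 5 of the 7 genes. Control animal 2, without high phagocyte markers, was the lowest for 2, and the part of these markers was not tested. In region 3 all 7 were below 0, from -0.41 for Gabra4 to -0.09 for Gabra5 (5 of the 7 relative to the pan-neuronal markers, Gabra3 and Gabra5 turning), and 2 did not overlap, Gabra2 and Gabrb1, both lower, against 24.7% of all genes in that direction and 29.9% in either. At the lesion 6 of the 7 were above 0, but 3 relative to the pan-neuronal markers (Gabra5, Gabrb1 and Gabrb2). Summed phagocyte markers at the lesion were 849 and 631 FPKM in the controls and 626 and 303 in the stimulated animals. With stimulation 0 of these markers passed there (limma), and their part in the differences at the lesion was not tested. There Gabra3, Gabra5, Gabrb1 and Gabrb2 had both stimulated values above both controls, against 12.5% of all genes in that direction and 20.2% in either. Of these, Gabra3, Gabrb1 and Gabrb2 had both stimulated values under both controls in another region, a pattern of 7.73% of all genes.

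The largest of these at the lesion was Gabrb2, at 4.45 and 4.44 FPKM in the controls and 5.90 and 5.01 in the stimulated animals, a log2 difference of 0.29 (SE 0.16, limma adjusted p = 1.00). The remaining gene there, Gabrd, had a log2 difference of -0.48 (SE 0.31), resting on a value of 0.400 FPKM in control animal 1 against 0.224, 0.227 and 0.202 in the others. In region 5 the differences lay between -0.27 for Gabrb2 and 0.12 for Gabrb1, with 5 below 0 and 2 above, but 2 below and 5 above relative to the pan-neuronal markers. Here Gabrb2 alone did not overlap and was lower, against 6.07% of all genes in that direction and 24.6% in either. A moderated F test of whether the effect differed between regions passed in 0 of the 7 (limma, adjusted p = 1.00 for each) and in 0 of all genes. None of the 3 other tested GABA-A genes passed in any region either.

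**Figure D4:**
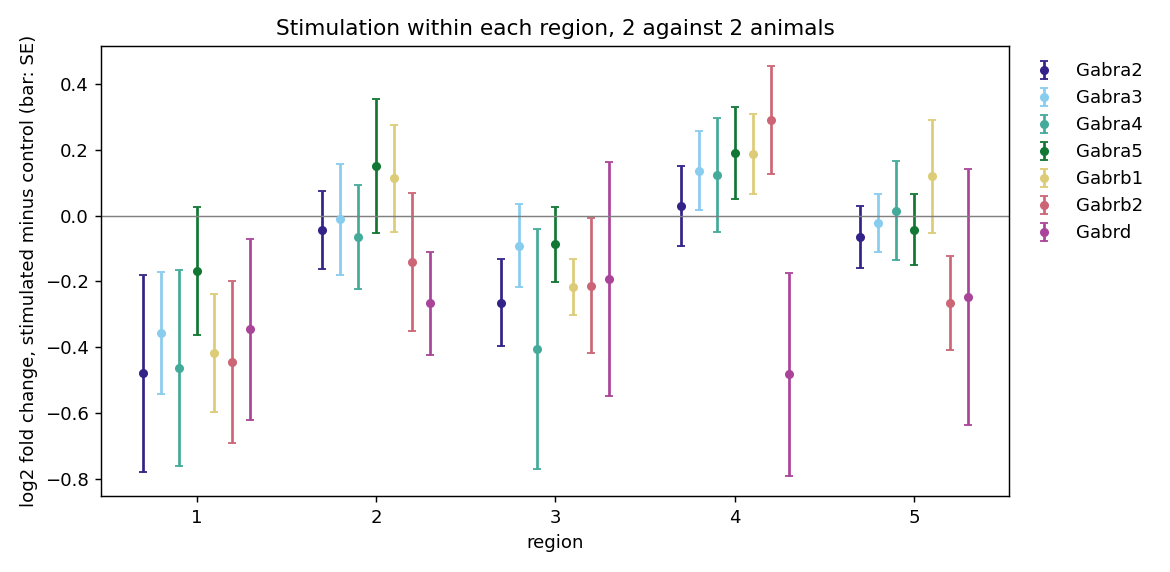
Log2 fold change, stimulated minus control, of each of the 7 genes within regions 1 to 5, with bars of 1 SE and 2 animals a group. All 7 lie below 0 in regions 1 and 3 and 6 of 7 lie above 0 in region 4, with no adjusted p under 0.05; relative to the pan-neuronal markers 6 and 5 lie below 0 in regions 1 and 3 and 3 above 0 in region 4.

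Other genes of GABA and glycine signaling were set against the same background, in which 72.2% of all genes differed between blocks and cord, 25.0% higher and 47.1% lower. Among 9 genes for making, moving and clearing GABA and setting chloride, 3 were higher in the blocks and 6 lower. The GABA-synthesizing enzymes Gad2 (2.71-fold) and Gad1 (2.28-fold) were higher, whereas the inward chloride carrier Slc12a2 was lower by a log2 difference of -1.92 and the GABA transporters Slc6a11 and Slc6a13 by -1.51 and -1.42 (limma, adjusted p of 3.00e-05 or less for each). Both subunits of the GABA-B receptor, which acts through G proteins, were higher, Gabbr2 by 3.80-fold and Gabbr1 by 1.18-fold. Of 4 genes of the glycine receptor, the other inhibitory chloride channel and one typical of cord, 3 were lower in the blocks. Glra1 lay between 0.1 and 0.460 FPKM in the blocks and between 31.1 and 52.8 in cord, and Glra3 between 0.1 and 0.212 against 1.55 and 4.49. Gabrd and Glra1 were each abundant on one side and close to the floor on the other.

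Of 14 tested genes for the transport, placement and anchoring of GABA-A receptors, 4 were higher in the blocks and 7 lower, a share near that of all genes. Shisa7, an auxiliary protein of the receptor, was 7.13-fold higher and Slitrk3, an adhesion protein of inhibitory synapses, 2.12-fold higher. Rdx, which links Gabra5-containing receptors to the cytoskeleton, was lower by a log2 difference of -1.12 and Plcl1, which binds beta subunits, by -1.06. Between region 3 and the lesion, 7 of the 9 GABA synthesis and transport genes, 2 of 2 GABA-B genes, 3 of 4 glycine receptor genes and 2 of 3 other GABA-A genes were higher rostrally, and 0 were lower, against 12.8% of all genes higher and 8 of 11 pan-neuronal genes. None of these lists had a member past the threshold with stimulation in any region.

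The 7 genes resembled each other and the rest of the table to different degrees across the 20 libraries, which share animals and are separated above all by tissue, so that correlations are given as a description. Gabra4, Gabrb2 and Gabrd were alike, with Pearson r of 0.98 to 0.99 on log2 FPKM, and Gabra2 was least like the others, with r of 0.10 to 0.47. Gabra3 was closest to Gabra5 (r = 0.82) among the 7. In the whole table the genes most like Gabra4 were Syt1 (r = 0.998), the sodium channel gene Scn2a and the transporter gene Slc6a17 (r = 0.996 each). Those most like Gabrb2 were Slc30a3, which loads zinc into synaptic vesicles, Brinp1 (r = 0.998 each) and the muscarinic receptor gene Chrm3 (r = 0.997). Among the genes closest to Gabrd were Cecr6 (r = 0.995) and the kinase gene Plk2 (r = 0.994).

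Gabra2 and Gabra5 had lower correlations with their closest genes. Gabra2 was most like Taok1 (r = 0.86), Lclat1 (r = 0.84) and Tmod1 (r = 0.81). Gabra5 was most like RGD1562084 (r = 0.90), Ralyl and Cdk14 (r = 0.89 each). Gabra3 was most like Dbndd1, Rnf208 and Tro (r = 0.97 to 0.98), and Gabrb1 was most like Nipal3, Zcchc11 and the G protein gene Gnao1 (r = 0.96 each).

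The place of these genes was read beside their levels. On chromosome 14 of GRCr8 the protein-coding genes run Gabrb1, Gabra4, Cox7b2, Gabra2, Gabrg1, and these 4 subunit genes were 1.53-fold higher, 12.1-fold higher, not called and lower in the blocks, in that order. On chromosome 1 Gabra5, not called, lies beside Gabrg3, higher in the blocks. Gabrb2 lies beside Gabra6 on chromosome 10, Gabra3 is on chromosome X, and Gabrd lies between Prkcz and Cfap74 on chromosome 5, with no other GABA-A gene beside it.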

How the data were processed

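RNA-seq libraries from 5 regions of 4 rats were analysed as 1 table. The authors depleted ribosomal RNA, made stranded total RNA libraries, sequenced paired 51 bp reads, aligned them to Rnor6 and estimated levels per gene. The submitters' processing notes name TopHat2 2.1.0, Cufflinks 2.2.1, FastQC and MultiQC 1.6, and the version of the annotation is not given in the sources used here. The authors deposited FPKM values per gene, scaled by transcript length and mapped fragments, with values under 0.1 raised to 0.1. All 20 columns carry sample titles, and 0 columns were left without a sample. FPKM values hold no read numbers, so the depth behind a gene is unknown and only the spread over libraries measures error. For stimulation within a region, with 2 animals a group, p-values measure the spread between these animals. Between regions they measure the spread of the 20 libraries about their region means, with control and stimulated animals pooled. The main fit between regions took the libraries of 1 animal as independent.

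Values were log2-transformed and genes with at least 1 FPKM in any library kept. Differences between regions were fitted with limma 3.58.1 in R 4.3.3 (lmFit, eBayes with trend) with 1 mean for each of the 5 regions over the 20 libraries, and stimulation within the 4 libraries of each region. Whether stimulation differed between regions was tested with a moderated F test on 4 degrees of freedom. Benjamini-Hochberg adjustment ran over the 15210 genes kept, and an adjusted p under 0.05 was called. The limma steps were tested on simulated data. Shares, correlations, promoter matches and figures used Python 3.11.15, numpy 2.4.6, pandas 2.3.3 and matplotlib 3.10.9. A fold change of a gene with values raised to the floor can understate its difference.

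The 7 genes and the 14 gene lists used (the 7, other GABA-A subunits, receptor placement, GABA-B, GABA synthesis and transport, glycine receptor and markers of cell types and tissues) were chosen with earlier results of these data known. Named in the text are the 7 genes, other GABA-A subunits, at most 4 genes of each other list with the largest log2 difference between blocks and cord past the threshold, any listed gene past it with stimulation, and the 3 genes most correlated with each of the 7. A few genes that this rule would name are not reported here and were left out of the lists and sums. Motor neuron (3 of 3 tested lower in the blocks), astrocyte (2 higher and 4 lower of 6) and striatal markers (5 higher and 2 lower of 8) were read beside the others. Genes beside the 7 in the genome were named from RefSeq GRCr8, a later build than that of the files, so no coordinates of the files are given. Reads of overlapping genes cannot be told apart here, as the use of strand in counting is not given in the sources used here.

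The sample titles name the animal, so that each animal gave a library to all 5 regions, and the deviations of an animal's libraries from the group means correlated at 0.59 between regions 1 and 2, at 0.21 between regions 3 and 4, and at -0.03 to 0.13 in the other pairs of regions. Alternatives were log2(FPKM + 1), no filter or a filter of 1 FPKM in at least 2 libraries, quantile normalization, upper-quartile scaling, levels relative to pan-neuronal markers, eBayes without trend, 10 means for region and group, 1 model of stimulation for all 5 regions at once, a block for the animal (between regions) or for its number (stimulation), and leaving out each animal.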

Additional observations from a re-analysis of the deposited data

Results flagged for a closer look

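A library stood apart from the other 3 of its region in 3 of 35 gene and region combinations by Dixon's test, where chance gives about 1 in 20. Gabrb2 in region 3 was highest in control animal 2, at 10.6 FPKM, a gap of 0.906 of the range of the 4 libraries, and summed cortical neuron markers were 17.3 FPKM in that library against 4.84 to 7.53 in the others. Gabrd in region 1 was lowest in stimulated animal 2, at 8.46 FPKM, a gap of 0.890 of the range, and summed phagocyte markers were 318 FPKM in that library, 182 in stimulated animal 1 and 77.1 and 77.7 in the controls. Gabrd in region 4 was highest in control animal 1, at 0.400 FPKM, a gap of 0.870 of the range. The part of these marker differences was not tested.

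In 3 genes every stimulated library lay above every control library at the lesion and below every control library in another region, which held for 7.73% of all genes. Gabra3 had a log2 difference of 0.14 at the lesion and -0.36 in region 1. Gabrb1 had 0.19 at the lesion, -0.42 in region 1 and -0.22 in region 3. Gabrb2 had 0.29 at the lesion, -0.45 in region 1 and -0.27 in region 5. These pairs of regions were not tested against each other. Relative to the pan-neuronal markers Gabrb1 and Gabrb2 remained above 0 at the lesion and Gabra3 did not. In the other regions named here the 3 genes remained below 0 on that scale. Stimulated animal 2 was the lowest library in region 1 for all 7 genes. The moderated F test over all 5 regions gave a limma adjusted p of 1.00 for each of the 3 genes, with unadjusted p of 0.29, 0.0855 and 0.23.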

How the results depend on the processing

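Of the 7 genes, the number called between blocks and cord stayed at 5 to 7 under every alternative, and that between region 3 and the lesion at 3 to 5. The genes behind these counts changed relative to the pan-neuronal markers. Between blocks and cord, Gabra2 and Gabra5 were then called as lower and Gabra3 was not called. Between region 3 and the lesion, Gabra2 and Gabrb1 were then called as lower and Gabra5 and Gabrb2 were not called. Between regions 1 and 2 the number called was 1, and became 2 with log2(FPKM + 1), 0 without a filter, 2 relative to the pan-neuronal markers and 0 to 1 without an animal. Between region 5 and the lesion it was 2, and became 0 without a filter, under quantile or upper-quartile scaling, without a trend or with 10 means, and 0 to 1 without an animal. Relative to the pan-neuronal markers it was 2 of different genes, Gabrb1 and Gabrd, both lower in region 5, as were 45.1% of all genes. Between regions 3 and 5 it was 1, and became 3 under quantile scaling, 5 under upper-quartile scaling, 4 relative to the pan-neuronal markers and 0 to 2 without an animal. With stimulation it stayed at 0, except in region 4, where it was 0 to 1 without an animal (Gabrd, -0.90, limma adjusted p = 0.0170 without control animal 2). Relative to the pan-neuronal markers, signs turned between blocks and cord for Gabra2 (-0.30), Gabra3 (-0.0063) and Gabra5 (-0.31), between regions 1 and 2 for Gabra2 (0.13) and Gabra4 (0.031), between region 3 and the lesion for Gabrb1 (-0.27) and Gabrd (-0.066), and with stimulation in region 1 for Gabra5 (0.086). Stimulation signs also turned for Gabra3 and Gabra5 in region 3, and for Gabra2 and Gabra3 in regions 4 and 5. Those of Gabra4 in region 4 and Gabra5 in region 5 turned as well. Between region 5 and the lesion they turned for Gabra2 (-0.27), Gabra3 (-0.087), Gabra4 (-0.30), Gabra5 (-0.081), Gabrb1 (-0.36) and Gabrb2 (-0.15), and Gabrb1 also turned under quantile (-0.035) and upper-quartile scaling (-0.052). The pan-neuronal scaling moved the median of all genes to -0.61 between blocks and cord, from -0.18, and to -0.33 between region 5 and the lesion, from 0.14. Without 1 animal, the log2 difference between regions 1 and 2 ran from -0.091 to 0.15 for Gabra2 and from -0.21 to 0.052 for Gabra4, and that with stimulation in region 1 from -0.36 to 0.020 for Gabra5 and from -0.70 to 0.0064 for Gabrd. The cause of these changes was not tested.

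Counts over all genes moved more. Between regions 1 and 2, 1310 genes were called, and 26 without stimulated animal 1 to 3674 without stimulated animal 2. Between region 3 and the lesion 2984 were called, and 523 without control animal 2 to 11631 relative to the pan-neuronal markers. Between region 5 and the lesion it was 1216, and 5 without control animal 1 to 6897 relative to the markers, and between regions 3 and 5 it was 657, and 54 without stimulated animal 1 to 1237 without stimulated animal 2. With stimulation at most 228, 548, 7, 140 and 443 genes were called in regions 1 to 5, and at most 1325 for the difference between regions. The share of all calls that were higher in the first region was 79.6% between regions 1 and 2 (52.9% under quantile, 58.6% under upper-quartile scaling and 91.8% relative to the pan-neuronal markers), 65.4% between region 3 and the lesion (54% under upper-quartile scaling and 2.07% relative to the markers), 88.3% between region 5 and the lesion (58.5%, 47.6% and 0.435%) and 35.8% between regions 3 and 5 (60.8%, 64.2% and 28.2%). For stimulation, leaving out an animal leaves 1 library in an arm, which is then assumed to vary like the others.

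With the animal as a block the calls of the 7 genes were 5, 1, 4, 2 and 1 in the 5 comparisons of regions, as without it, and Gabra2 between regions 2 and 3 passed. The numbers 1 and 2 of stimulated and control animals name different animals, whose deviations correlated at -0.21, -0.10, -0.11, 0.32 and -0.16 in regions 1 to 5. The replicate number as a block gave 0 of the 7 genes in every region, and 0, 0, 0, 0 and 443 of all genes. The crossed pairing, chosen after seeing the data, gave 0, 0, 0, 118 and 0 of all genes.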
